A study of Homo sapiens with 12 samples.

Results

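The bone morphogenetic protein (BMP) ligand genes BMP2, BMP4 and BMP7, the BMP feedback gene BAMBI and the BMP target genes ID1, ID2, ID3, ID4, MSX1 and MSX2 were followed across 4 groups of human embryonic stem cell libraries. The 10 genes were chosen by name from the deposited tables of 23590 gene symbols, and all 10 were present and passed the filter of 1 FPKM in at least 3 libraries. Poly(A) RNA was sequenced from H9 and RUES2, both established human embryonic stem cell lines, to compare the naive state with the primed state, with 3 libraries in each of the 4 groups (12 in all). The unit is FPKM, a fragment count scaled by transcript length and by the mapped fragments of the library, so levels of different genes are compared here per length.

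Naive H9 (passages 27 to 31) and the cells labelled naive RUES2 (passages 24 to 26) were kept in a mix of DMEM/F12 and Neurobasal medium with 5 mM glucose, 18 µg/mL insulin, 5 mg/mL albumin, 20 ng/mL of the cytokine LIF, 1 µM PD0325901, a MEK inhibitor, and 3 µM CHIR99021, a GSK3 inhibitor. Primed H9 (passages 31 to 35) and primed RUES2 (passages 30 to 33) were kept on mouse embryonic fibroblast feeders stopped with mitomycin C, in DMEM/F12 with knockout serum replacement and 4 ng/mL bFGF. The title of the study names a transient inhibition of mTor, but no mTOR inhibitor, BMP ligand or BMP inhibitor is named among the additions to either medium. Colonies of all groups were picked by hand, and how the 3 biological replicates of a group were separated in culture is not given. State, medium, feeders and passage number moved together, so their parts in a difference cannot be told apart.

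BMP ligands are secreted dimers that bind pairs of type I and type II receptor kinases, which phosphorylate SMAD1, SMAD5 and SMAD9. These enter the nucleus with SMAD4 and switch on target genes, among them the ID genes, whose products bind E proteins and keep them from DNA, and the homeobox genes MSX1 and MSX2. BAMBI encodes a membrane protein that resembles a type I receptor without a kinase and dampens signalling, and it is itself a BMP target. In mouse embryonic stem cells BMP4 acts together with LIF through Id genes to hold self-renewal, whereas human primed embryonic stem cells given BMP4 are known to differentiate.

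Promoters are shown for BMP4 and BAMBI, whose levels moved alike over the libraries, and for ID1, whose level did not. They are the RefSeq windows on GRCh38.p14 from 250 bases before to 50 bases after a gene's start, 5′ to 3′ on the gene's strand. Capitals mark GGCGCC, a GC-rich element that SMAD1 and SMAD5 can bind, in BMP4 and BAMBI, and TATAAA, the core of a TATA box, in ID1.
BMP4, first of 3 annotated starts, chr14:53955001-53955300, minus strand: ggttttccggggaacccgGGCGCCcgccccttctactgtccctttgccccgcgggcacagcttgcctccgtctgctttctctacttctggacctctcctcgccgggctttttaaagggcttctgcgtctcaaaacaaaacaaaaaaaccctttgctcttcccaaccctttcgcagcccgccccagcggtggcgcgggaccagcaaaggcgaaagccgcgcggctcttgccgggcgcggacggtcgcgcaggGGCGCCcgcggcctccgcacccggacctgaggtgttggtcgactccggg
BAMBI, chr10:28677271-28677570, plus strand: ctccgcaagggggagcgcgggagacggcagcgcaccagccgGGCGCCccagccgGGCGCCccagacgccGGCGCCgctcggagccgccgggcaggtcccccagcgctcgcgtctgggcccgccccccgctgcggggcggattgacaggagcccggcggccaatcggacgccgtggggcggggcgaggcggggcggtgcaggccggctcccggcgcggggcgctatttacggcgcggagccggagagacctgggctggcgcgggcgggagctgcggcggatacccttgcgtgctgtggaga
ID1, chr20:31605039-31605338, plus strand: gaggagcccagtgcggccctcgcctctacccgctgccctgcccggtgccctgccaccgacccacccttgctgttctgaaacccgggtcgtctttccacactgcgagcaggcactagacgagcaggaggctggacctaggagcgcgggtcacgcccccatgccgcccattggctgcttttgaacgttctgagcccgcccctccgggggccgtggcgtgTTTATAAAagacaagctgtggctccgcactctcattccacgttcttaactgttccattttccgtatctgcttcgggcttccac

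Windows were found for 8 of the 10 genes, all but BMP2 and BMP7, and 4 motifs were searched in them on both strands. GGCGCC was in 19.2% of all 34796 windows of 300 bases. It occurred 3 times in the BAMBI window and 2 times in the BMP4 window shown, and in no window of the other 6 genes or of the other BMP4 starts. TATAAA was in 11.6% of all windows. It was found in ID1, where the capitals cover 2 overlapping matches on opposite strands, and in ID4, 29 bases before the start. GTCTAGAC, a palindrome that SMAD4 can bind (0.193% of all windows), and CTTTGAT, a TCF and LEF element (2.62%), had no match in the windows of these 8 genes. MSX1, MSX2 and ID2, which also rose in naive H9, were among the genes without GGCGCC. A match is a run of letters and not evidence of binding, and its relation to the level of a gene was not tested.

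Between 12681 and 13593 genes reached 1 FPKM in a library, and relative depth, estimated from the deposited confidence bounds, differed by up to 2.34 times. In a check of line identity, 3 of the 12 libraries (0 with the H9 label) failed to match the others of their line label. The libraries of the RUES2 label thus split evenly, so every comparison that uses RUES2 gives the libraries as labelled. The part of line identity in these comparisons was not tested, and it may be mixed with that of state. Replicate 2 of primed H9 stood apart in several of the genes described, and values without it are given beside those genes. POU5F1, the defining pluripotency factor, was at 417 to 451 FPKM in naive H9, 790 to 983 FPKM in primed H9, 458 to 587 FPKM in libraries labelled naive RUES2 and 666 to 880 FPKM in primed RUES2. KLF17, a factor of the naive human epiblast, stayed under 0.2 FPKM in all 12 libraries. DNMT3L, another naive marker, was at 9.43 to 16.7 FPKM in naive H9 and 0.0953 to 0.888 FPKM in primed H9. It was at 25.3 to 74.7 FPKM in libraries labelled naive RUES2 and 0.308 to 1.20 FPKM in primed RUES2. KHDC3L was at 7.27 to 12.2 FPKM in naive H9 but 0.122 to 0.302 FPKM in libraries labelled naive RUES2. DPPA5, also in this list of 4 naive markers, overlapped between the states of both line labels.

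**Figure D1:**
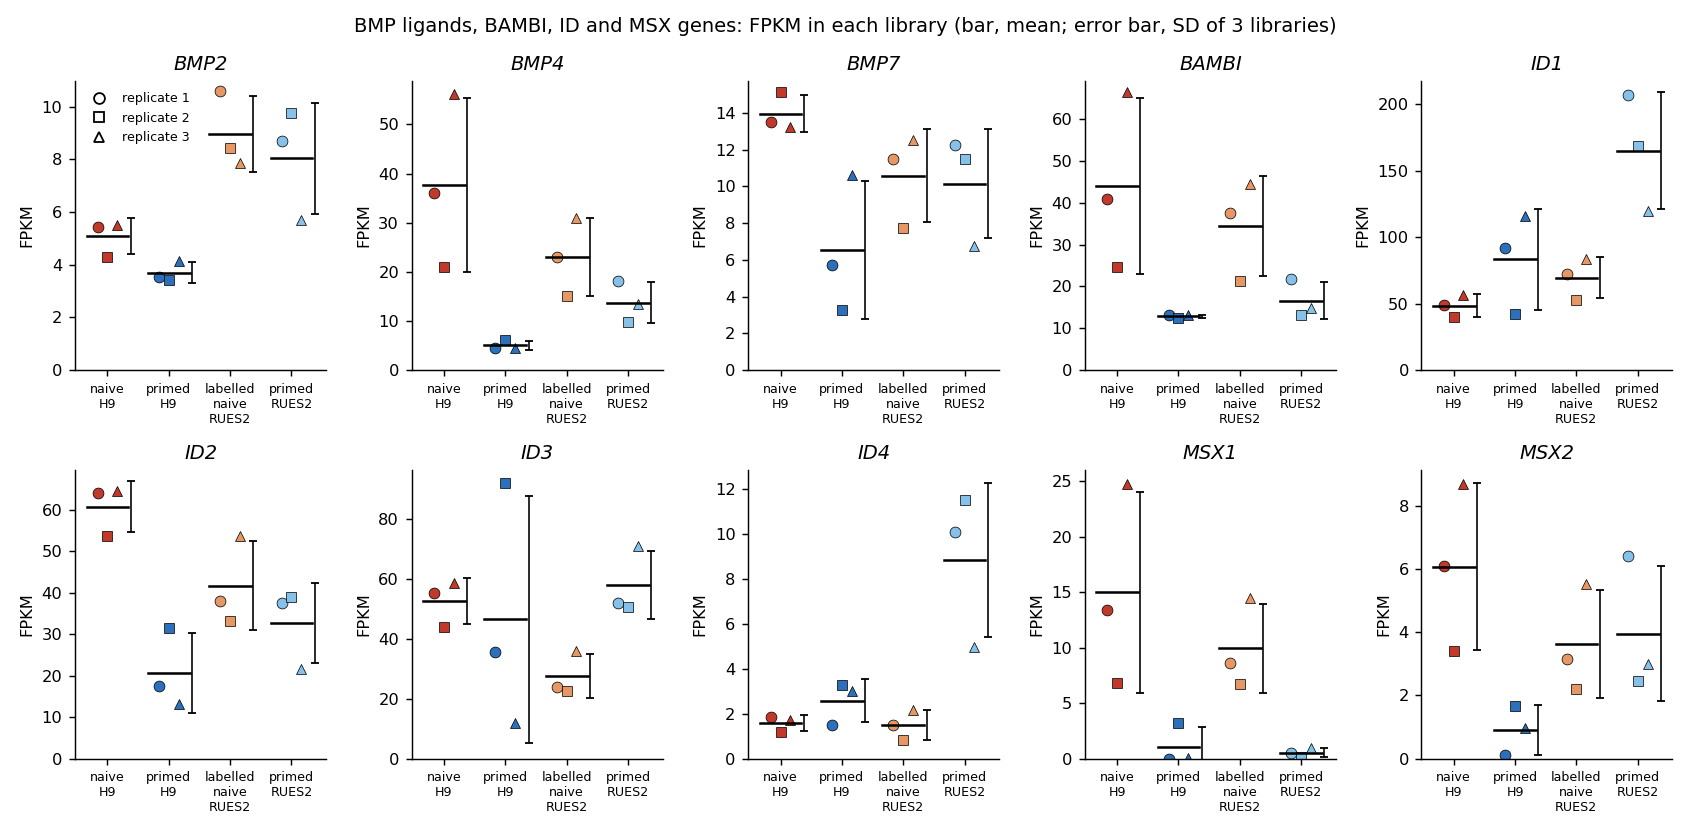
FPKM of the 10 genes in each of the 12 libraries, 1 panel per gene, with naive left of primed in each line; bars are means and error bars SD of 3 libraries. BMP4, BAMBI, ID2, MSX1 and MSX2 lie higher in naive H9 than in primed H9 with no overlap, while ID1 and ID4 lie highest in primed RUES2.

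In H9 the naive state had more RNA of most of these genes. Of the 10 genes, 6 rose in naive H9 against primed H9 and 0 fell at an adjusted p under 0.05 (limma on log2(FPKM + 1), Benjamini-Hochberg over 14429 genes). Over all genes tested 20.4% rose and 23.9% fell, 44.3% in all. The genes that rose were BMP4, BMP7, BAMBI, ID2, MSX1 and MSX2, and at an unadjusted p under 0.05 the counts were also 6 and 0. The median log2 difference of the 10 genes was 1.35, beside -0.01 over all genes tested. In these bulk libraries a larger number of expressing cells and more RNA per cell cannot be told apart.

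BMP4, the ligand most used to drive human stem cells toward mesoderm, amnion and trophoblast, showed the largest change of the ligands (hg19 chr14:54416455-54423554). It was at 36.1, 20.9 and 56.2 FPKM in naive H9, against 4.56, 6.04 and 4.45 FPKM in primed H9. The lowest naive library was thus over 3 times the highest primed one, and the naive libraries spread more widely than the primed ones. The log2 difference was 2.59 ± 0.35 (SE), with an adjusted p of 0.000254 in limma. In libraries labelled naive RUES2 BMP4 was at 23.0, 15.1 and 31.0 FPKM, against 18.0, 9.83 and 13.3 FPKM in primed RUES2. These groups overlapped, and the log2 difference of 0.69 ± 0.35 (SE) did not pass the test (limma adjusted p = 0.134).

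BMP7, a ligand that can pair with BMP2 or BMP4 in more potent dimers, rose in naive H9 by a smaller amount (chr20:55743809-55841707). It was at 13.5, 15.1 and 13.2 FPKM in naive H9, against 5.72, 3.24 and 10.6 FPKM in primed H9. The naive libraries were tightly grouped and lay above all 3 primed ones, with a log2 difference of 1.11 ± 0.33 (SE) and a limma adjusted p of 0.0205. This call ended without naive H9 replicate 2 (adjusted p = 0.0604), primed H9 replicate 1 (0.0509) or primed H9 replicate 2 (0.0592). BMP7 was at 11.5, 7.72 and 12.5 FPKM in libraries labelled naive RUES2, against 12.2, 11.5 and 6.73 FPKM in primed RUES2, groups that overlapped almost wholly (log2 difference 0.07 ± 0.33, limma adjusted p = 0.883).

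BMP2, a close relative of BMP4, was called between the line labels and not between the states (chr20:6748745-6760910). It was at 5.44, 4.30 and 5.53 FPKM in naive H9, against 3.54, 3.41 and 4.14 FPKM in primed H9. The groups did not overlap, but the log2 difference of 0.37 ± 0.18 (SE) did not pass the test (limma adjusted p = 0.111). It passed without primed RUES2 replicate 3 (0.041), with the H9 libraries fitted alone (0.048) and with quantile normalization (0.0383). In libraries labelled naive RUES2 it was at 10.6, 8.43 and 7.86 FPKM, against 8.68, 9.75 and 5.68 FPKM in primed RUES2 (log2 difference 0.16 ± 0.18, limma adjusted p = 0.483).

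The makeup of the ligand pool differed between the states of H9 without overlap. BMP4 made up 51.8% to 75.0% of the summed FPKM of BMP2, BMP4 and BMP7 in naive H9 and 23.2% to 47.6% in primed H9. It made up 48.3% to 60.3% in libraries labelled naive RUES2 and 31.6% to 51.8% in primed RUES2. The sum itself was 40.3 to 75.0 FPKM in naive H9, 12.7 to 19.2 FPKM in primed H9, 31.2 to 51.4 FPKM in libraries labelled naive RUES2 and 25.7 to 39.0 FPKM in primed RUES2. The 11 other ligand genes listed (BMP3, BMP5, BMP6, BMP8A, BMP8B, BMP10, BMP15, GDF2, GDF5, GDF6 and GDF7) did not pass the filter. The highest value among them was 1.36 FPKM, of BMP5 in a library labelled naive RUES2, and BMP15 was listed at 0 in all 12.

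BAMBI, the decoy receptor, was higher in the naive state of both line labels (chr10:28966424-28971868). It was at 40.96, 24.7 and 66.5 FPKM in naive H9, against 13.1, 12.3 and 13.1 FPKM in primed H9. The primed H9 libraries were nearly equal and all lay below the lowest naive one (log2 difference 1.59 ± 0.35, limma adjusted p = 0.00407). It was at 37.6, 21.3 and 44.5 FPKM in libraries labelled naive RUES2, against 21.7, 13.2 and 14.9 FPKM in primed RUES2. Here the lowest naive library lay just under the highest primed one. The log2 difference was 0.98 ± 0.35 (SE) with a limma adjusted p of 0.039, and 7 of 21 alternatives ended this call. They were no filter on low values (0.0544) and leaving out naive H9 replicate 1 (0.0533), primed H9 replicate 1 (0.0509), replicate 1 or 3 of the libraries labelled naive RUES2 (0.109 and 0.130), or primed RUES2 replicate 2 or 3 (0.116 and 0.0932).

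BAMBI was also set against BMP4 within each library. BAMBI over BMP4 was 1.135 to 1.183 in naive H9 and 2.04 to 2.95 in primed H9, and 1.41 to 1.63 in libraries labelled naive RUES2 and 1.12 to 1.34 in primed RUES2. The ratio was thus highest in primed H9, where BMP4 was lowest.

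**Figure D2:**
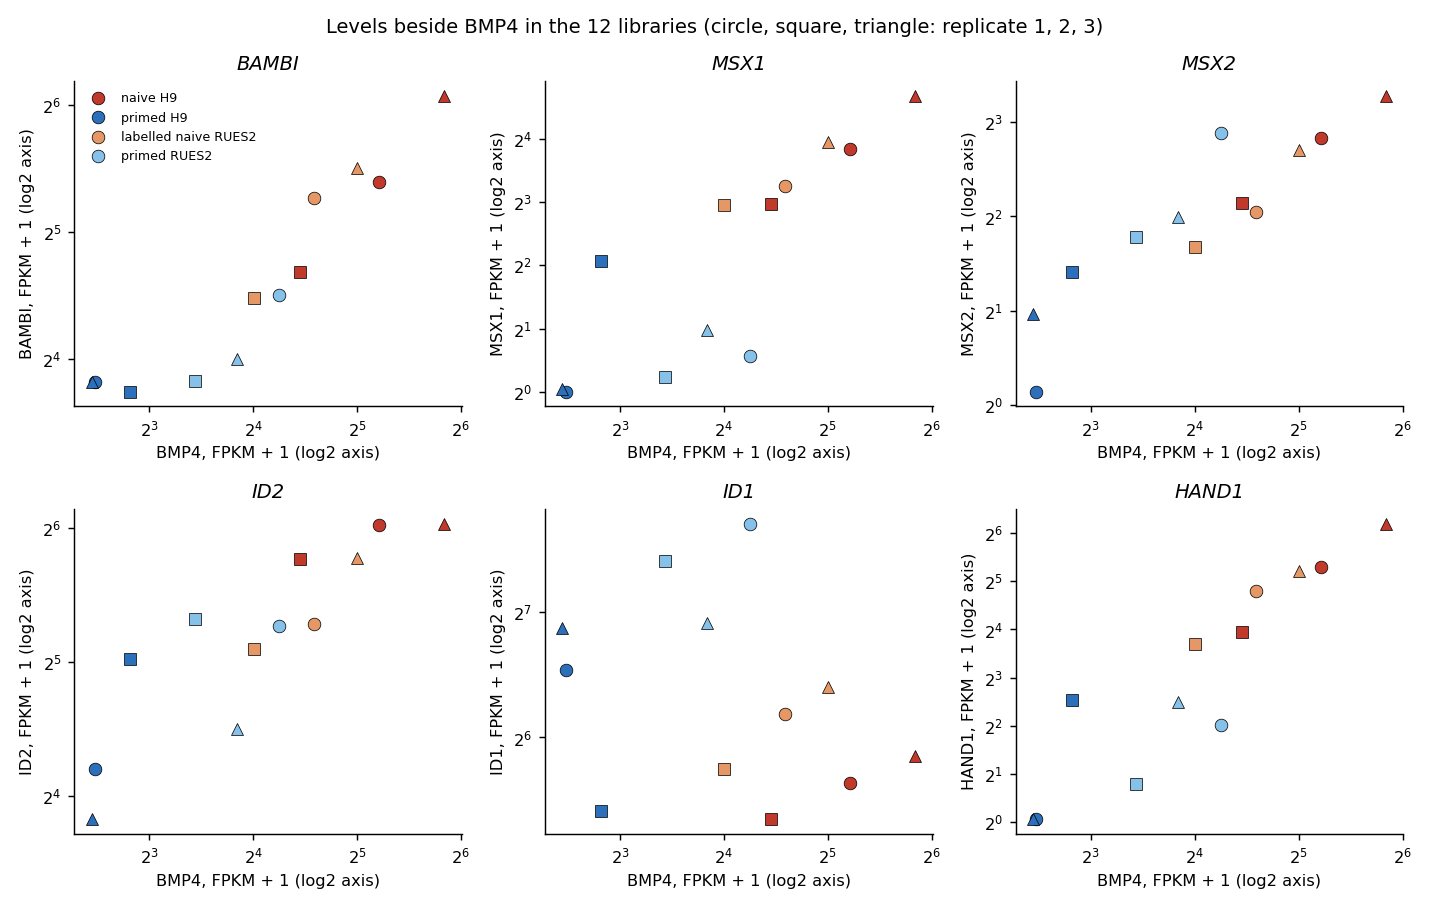
FPKM + 1 of BAMBI, MSX1, MSX2, ID2, ID1 and HAND1 against that of BMP4 in the 12 libraries, both axes on a log2 scale; colours give the group and symbols the replicate. Among naive libraries of both line labels BAMBI, MSX1, MSX2 and HAND1 order as BMP4 does within each group, highest in replicate 3 and lowest in replicate 2, and so do ID1 and ID2; over all groups ID1 is highest in primed RUES2.

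MSX1 and MSX2 encode homeobox repressors that BMP induces in early mesoderm, neural crest and extraembryonic cells. MSX1 (chr4:4861392-4865660) was at 13.4, 6.81 and 24.8 FPKM in naive H9. In primed H9 it was listed at 0 in replicate 1, at 3.18 FPKM in replicate 2 and at 0.032 FPKM in replicate 3, whose deposited confidence interval ran up to 0.096 FPKM. It was at 8.60, 6.73 and 14.5 FPKM in libraries labelled naive RUES2, against 0.479, 0.170 and 0.966 FPKM in primed RUES2. The groups did not overlap in either line label, and 1 primed library, H9 replicate 2, carried most of the primed signal. The log2(FPKM + 1) difference was 3.13 ± 0.58 (SE; limma adjusted p = 0.00159) in H9 and 2.80 ± 0.58 (0.00274) in RUES2, and both calls held in every alternative run. With a pseudocount of 0.1 in place of 1, the H9 difference of MSX1 was 5.24. Without primed H9 replicate 2 it was 3.81 (adjusted p = 0.000206).

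MSX2 (chr5:174151575-174157902) rose in naive H9, and its values overlapped between the states of RUES2. It was at 6.12, 3.42 and 8.70 FPKM in naive H9, against 0.106, 1.67 and 0.955 FPKM in primed H9 (log2 difference 1.91 ± 0.42, limma adjusted p = 0.00462; 2.99 with a pseudocount of 0.1). It was at 3.14, 2.20 and 5.53 FPKM in libraries labelled naive RUES2, against 6.401, 2.45 and 3.00 FPKM in primed RUES2 (-0.08 ± 0.42, 0.896). In primed RUES2 MSX2 was therefore present where MSX1 was nearly absent: MSX1 over MSX2 was 0.0692 to 0.322 there, beside 2.62 to 3.06 in libraries labelled naive RUES2. The ratio was 1.99 to 2.85 in naive H9 and 0 to 1.90 in primed H9.

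The 4 ID genes encode small helix-loop-helix proteins without a DNA-binding region, and they did not move together. ID2 (chr2:8822113-8824583) was at 64.0, 53.6 and 64.4 FPKM in naive H9, against 17.4, 31.5 and 13.2 FPKM in primed H9. All naive libraries lay above the primed ones (log2 difference 1.59 ± 0.31, limma adjusted p = 0.00223; 1.93 without primed H9 replicate 2, 0.000461). In libraries labelled naive RUES2 ID2 was at 37.996, 33.2 and 53.8 FPKM, against 37.6, 38.9 and 21.7 FPKM in primed RUES2. These groups overlapped, and the difference of 0.35 ± 0.31 did not pass the test (limma adjusted p = 0.373).

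ID1, the ID gene read most often as a marker of BMP signalling, was lower in the naive state of the RUES2 label (chr20:30193086-30194317). It was at 71.9, 52.9 and 83.3 FPKM in libraries labelled naive RUES2, against 207, 169 and 120 FPKM in primed RUES2. The groups did not overlap, and the log2 difference was -1.23 ± 0.35 (SE; limma adjusted p = 0.0144). That call ended without replicate 2 of the libraries labelled naive RUES2 (0.0562) or without primed RUES2 replicate 1 (0.0567). ID1 was at 48.8, 39.8 and 56.8 FPKM in naive H9, against 92.0, 41.7 and 116 FPKM in primed H9. The overlap came from primed H9 replicate 2, and the difference of -0.66 ± 0.35 did not pass the test (limma adjusted p = 0.145). Without that library it was -1.09 with an adjusted p of 0.00751.

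ID4, the rarest of the family here, also fell in the RUES2 label (chr6:19837601-19842431). It was at 1.48, 0.828 and 2.18 FPKM in libraries labelled naive RUES2, against 10.1, 11.5 and 4.97 FPKM in primed RUES2. The lowest primed library was over 2 times the highest naive one (log2 difference -1.95 ± 0.31, limma adjusted p = 0.000615). ID4 was at 1.85, 1.19 and 1.72 FPKM in naive H9, against 1.48, 3.26 and 3.01 FPKM in primed H9, groups that overlapped (-0.44 ± 0.31, limma adjusted p = 0.274).

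ID3 spread widely in primed H9, where its highest library was over 7 times its lowest (chr1:23884421-23886285). It was at 55.2, 43.8 and 58.7 FPKM in naive H9, against 35.5, 92.0 and 12.003 FPKM in primed H9. The difference of 0.59 ± 0.54 did not pass the test (limma adjusted p = 0.403), was 1.29 without primed H9 replicate 2 (adjusted p = 0.021) and turned to -0.13 without primed H9 replicate 3 (0.803). It was at 23.8, 22.6 and 36.1 FPKM in libraries labelled naive RUES2, against 51.9, 50.6 and 70.8 FPKM in primed RUES2. These groups did not overlap, yet the difference of -1.06 ± 0.54 did not pass (limma adjusted p = 0.135). With the RUES2 libraries fitted alone, which leaves the spread of primed H9 out, the same difference had an adjusted p of 0.00809. It was 0.0278 without primed H9 replicate 2 and 0.0211 without primed H9 replicate 3.

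Summed over the family, ID levels overlapped in 3 groups and lay higher in primed RUES2. The 4 genes summed to 170, 138 and 182 FPKM in naive H9 and 146, 169 and 144 FPKM in primed H9. They summed to 135, 110 and 175 FPKM in libraries labelled naive RUES2 and 307, 269 and 217 FPKM in primed RUES2. The states of H9 thus overlapped in the sum and differed in its makeup.

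ID2 made up 35.5% to 38.7% of the sum in naive H9 and 9.17% to 18.7% in primed H9. Its share was 28.1% to 30.7% in libraries labelled naive RUES2 and 9.99% to 14.4% in primed RUES2. The share of ID2 was therefore higher in every naive library than in any primed one, in both line labels. ID1 made up 28.7% to 31.3% in naive H9 and 24.8% to 80.4% in primed H9, the lowest of these in replicate 2, where ID3 held 54.6%. The ID1 share was 47.5% to 53.2% in libraries labelled naive RUES2 and 55.1% to 67.5% in primed RUES2. ID1, ID2 and ID3 thus held near-equal shares in naive H9, which no primed library showed.

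**Figure D3:**
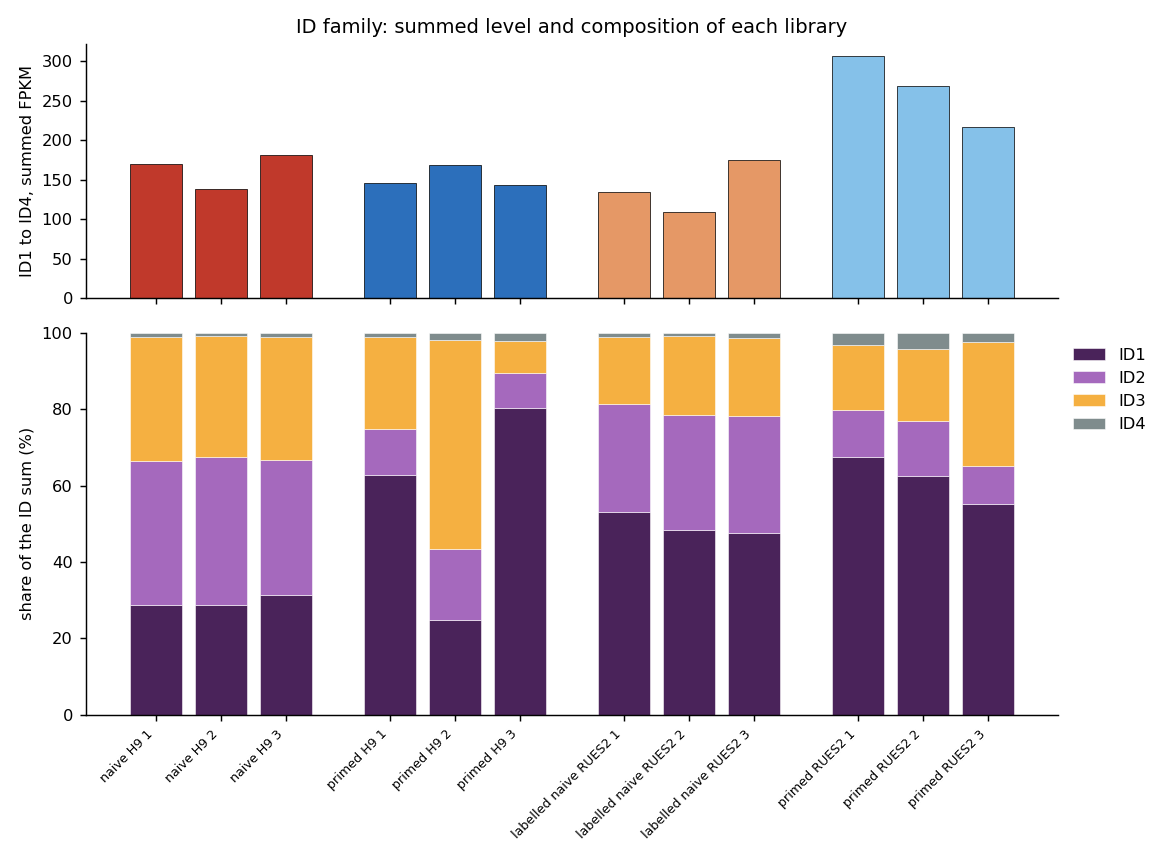
Summed FPKM of ID1 to ID4 in each library (upper bars) and the share of each gene in that sum in percent (lower bars). The ID2 share is 28.1% or more in the 6 naive libraries and 18.7% or less in the 6 primed ones, and primed H9 replicate 2 has an ID3 share of 54.6%.

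Taking the RUES2 label as a whole, 2 of the 10 genes rose in the naive state (BAMBI and MSX1) and 2 fell (ID1 and ID4). Over all genes tested 23.1% rose and 23.7% fell, 46.8% in all, so the share of the 10 genes that was called, 4 of 10, was near the background. The median log2 difference of the 10 genes was 0.11, beside 0.01 over all genes. Groups that did not overlap were found for 1 gene above (MSX1, with a background of 29.0%) and 3 below (ID1, ID3 and ID4, with a background of 28.3%). In H9 they were found for 7 genes above (the 6 called and BMP2, with a background of 27.0%) and 0 below (30.3%).

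**Figure D4:**
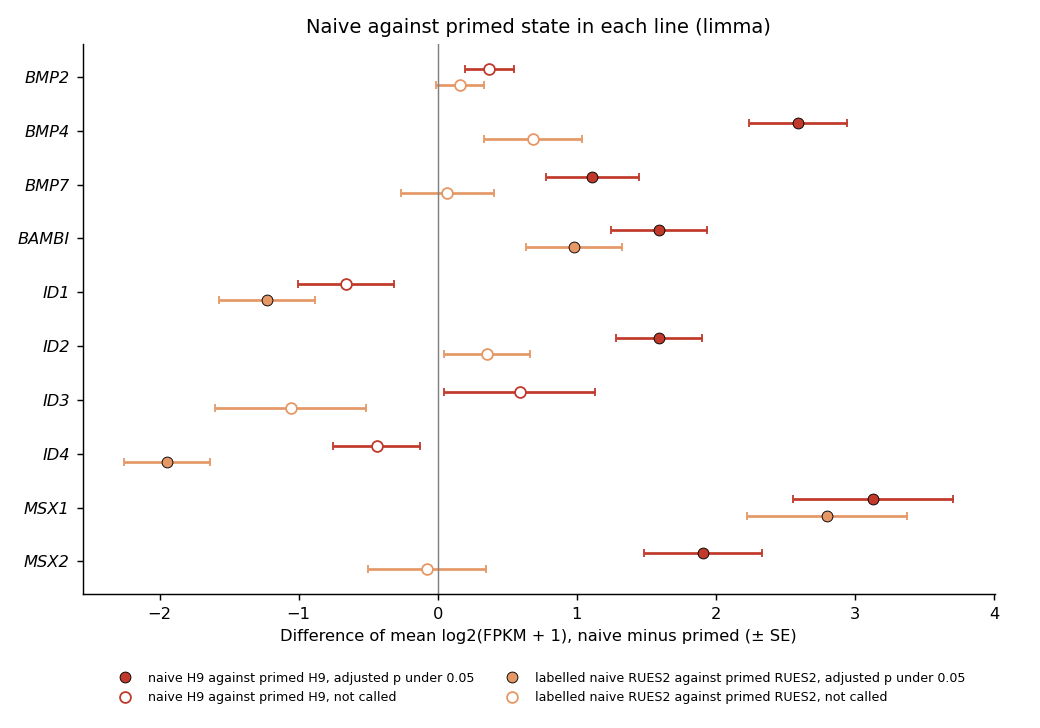
Difference of mean log2(FPKM + 1), naive minus primed, for each gene in H9 (upper marker) and in the RUES2 label (lower marker), with error bars of 1 SE; filled markers have a limma adjusted p under 0.05. BMP4, BMP7, ID2 and MSX2 are called in H9 and not in RUES2, ID1 and ID4 in RUES2 and not in H9, and BAMBI and MSX1 in both.

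Whether the state change itself differed between the line labels was tested as the change in RUES2 minus the change in H9. Of the 10 genes, 0 passed in limma, beside 5.7% of all genes tested (3.77% higher and 1.93% lower). At an unadjusted p under 0.05 there were 4 (BMP4, ID2, ID4 and MSX2), but the share of all genes at that looser threshold was not counted. All 10 differences were negative, with a median of -1.14 beside 0.00 over all genes. The change of BMP4 was lower in RUES2 by -1.90 ± 0.50 (SE; adjusted p = 0.0528), that of MSX2 by -1.99 ± 0.60 (0.0845) and that of ID4 by -1.51 ± 0.44 (0.0755). The adjusted p of BMP4 ran from 0.0283 to 0.131 over the alternatives, 6 of which took it past the threshold, among them leaving out naive H9 replicate 2 (0.0283), replicate 3 of the libraries labelled naive RUES2 (0.0443) or primed RUES2 replicate 2 (0.0493). ID4 passed without primed RUES2 replicate 3 (0.0293) and with quantile normalization (0.0456). Without primed H9 replicate 2, ID2 (-1.57, adjusted p = 0.0357) and ID3 (-2.35, 0.0304) passed. MSX1 was the gene with the nearest changes relative to their error (-0.33 ± 0.81, adjusted p = 0.857), an error that still allows a large difference.

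The line labels were also compared within each state. In the primed state 2 of the 10 genes were higher in RUES2 than in H9, BMP2 and ID4, and 0 were lower, beside a background of 1.34% higher and 0.471% lower (1.82% in all). At an unadjusted p under 0.05, 5 genes were higher (BMP2, BMP4, ID1, ID4 and MSX2) and 0 lower. The share of all genes at that looser threshold was not counted, so these 5 have no background. The log2 difference was 0.92 ± 0.18 (limma adjusted p = 0.0319) for BMP2 and 1.43 ± 0.31 (0.0496) for ID4. The BMP2 call ended in 8 of 21 alternatives and the ID4 call in 16 of 20, and both ended with the primed libraries fitted alone (0.208 and 0.250). Leaving out 1 library ended the BMP2 call for primed RUES2 replicates 1 (0.154) and 2 (0.0599), primed H9 replicates 1 (0.0998) and 2 (0.0712), and naive H9 replicates 1 (0.0585) and 3 (0.0521). The ID4 call ended without any 1 library other than primed RUES2 replicate 3 (0.053 to 0.211). BMP4 was at 18.0, 9.83 and 13.3 FPKM in primed RUES2 against 4.56, 6.04 and 4.45 FPKM in primed H9, which did not overlap (1.26 ± 0.35, limma adjusted p = 0.117). In all, 6 genes lay wholly above in primed RUES2 (BMP2, BMP4, BAMBI, ID1, ID4 and MSX2, with a background of 8.7%) and 0 wholly below (5.93%).

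In the naive state 1 of the 10 genes was higher in libraries labelled RUES2 than in H9, again BMP2, and 0 were lower, beside a background of 11.2% higher and 4.69% lower (15.9% in all). At an unadjusted p under 0.05 the counts were also 1 and 0. The log2 difference of BMP2 was 0.71 ± 0.18 (limma adjusted p = 0.0223), and the call ended without replicate 1 or 2 of the libraries labelled naive RUES2 (0.0859 and 0.0582) or without naive H9 replicate 1 or 2 (0.0559 and 0.088). BMP2 lay wholly above (background 26.8%), and BMP7 and ID3 lay wholly below in libraries labelled naive RUES2 (background 19.3%). The groups of the other 7 genes overlapped.

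Among the other genes of the pathway, taken from lists and named by their change in H9, receptors and transducers gave calls in both directions. Of 10 receptor and co-receptor genes 7 were tested, of which 2 rose and 2 fell in naive H9, and 2 rose and 1 fell in the RUES2 label. Over all genes tested 20.4% rose and 23.9% fell in H9, and 23.1% and 23.7% in the RUES2 label. RGMA, a BMP co-receptor, was at 37.7, 37.0 and 41.4 FPKM in naive H9, against 14.5, 12.3 and 13.9 FPKM in primed H9 (log2 difference 1.45 ± 0.13, limma adjusted p = 2.16e-05). RGMB, its relative, rose by 0.73 ± 0.12 (0.000675), and the type II receptor gene ACVR2B fell by 0.78 (SE 0.11, 0.00042). The type I receptor gene ACVR1 fell by 0.54 (SE 0.19, 0.0402), a call that ended in 9 of 21 alternatives, 6 of them with 1 library left out (up to 0.141, without primed H9 replicate 3).

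BMPR1A, a main type I receptor, was at 25.2 to 29.2 FPKM in naive H9 and 23.8 to 33.8 FPKM in primed H9 and did not pass (limma adjusted p = 0.494). Of the 4 SMAD transducers, 0 rose and 1 fell in naive H9, beside 20.4% and 23.9% of all genes. SMAD4, the partner shared with the NODAL and activin branch, was at 8.52, 7.98 and 8.19 FPKM in naive H9, against 15.4, 12.4 and 13.8 FPKM in primed H9 (-0.68 ± 0.10, limma adjusted p = 0.000296). It fell by 0.72 in the RUES2 label (SE 0.10, 0.000201), where SMAD5 and SMAD9 rose.

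Of 18 listed inhibitors of the pathway 16 were tested in naive H9 against primed H9. Of these, 6 rose (BAMBI, FST, SOST, BMPER, FSTL3 and NOG) and 1 fell (CHRDL1), beside 20.4% and 23.9% of all genes. The share called in either direction was 44.3% over all genes. The list median was 0.12 beside -0.01 over all genes. Calls were lost in several alternatives: that of FSTL3 without any 1 of the 6 H9 libraries (up to 0.124), and that of BMPER without naive H9 replicate 1 or 3 or primed H9 replicate 1 or 3 (up to 0.079). FST, the secreted protein follistatin that binds activins and several BMPs, was at 244, 243 and 248 FPKM in naive H9, against 34.2, 17.3 and 16.03 FPKM in primed H9. The naive values were nearly equal, and the log2 difference was 3.47 ± 0.29 (limma adjusted p = 1.24e-05). SOST, which encodes sclerostin, changed by 1.36 ± 0.42 (0.0238) at 0.619 to 5.25 FPKM in naive H9, and the call ended without primed H9 replicate 1 (0.0607) or 3 (0.0573), so that 3 of the 6 rises (BAMBI, FST and NOG) were left without the one or the other. CHRDL1, a chordin-like BMP binder, was at 1.76, 2.50 and 1.54 FPKM in naive H9, against 7.23, 9.27 and 5.21 FPKM in primed H9 (-1.47 ± 0.24, 0.000789). In the RUES2 label 4 inhibitors rose (BAMBI, FST, GREM1 and SOSTDC1) and 2 fell (CHRDL1 and NOG), beside 23.1% and 23.7% of all genes. The GREM1 call ended without replicate 3 of the libraries labelled naive RUES2 (0.081) or primed RUES2 replicate 1 (0.0633) or 3 (0.0713).

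Of 11 other genes known to respond to BMP 7 were tested in naive H9 against primed H9, and 4 rose (HAND1, CDX2, TBX3 and TFAP2A) and 0 fell, beside 20.4% and 23.9% of all genes. DLX5, GATA3 and ISL1 did not pass (limma adjusted p of 0.376, 0.395 and 0.808). In the RUES2 label 3 rose (HAND1, CDX2 and ISL1) and 1 fell (GATA3), beside 23.1% and 23.7% of all genes. HAND1, a factor of mesoderm, amnion and trophoblast, was at 38.6, 14.5 and 72.7 FPKM in naive H9, against 0.046, 4.82 and 0.0362 FPKM in primed H9 (log2 difference 4.27 ± 0.79, limma adjusted p = 0.0016). As for MSX1, most of the primed H9 signal lay in replicate 2, without which the HAND1 difference was 5.10 (0.000414). The HAND1 call in the RUES2 label ended without primed RUES2 replicate 2 (0.0526) and with a pseudocount of 0.1 (0.0547). CDX2, a factor of trophectoderm and posterior mesoderm, was at 9.13, 7.95 and 11.9 FPKM in naive H9, against 1.38 FPKM in primed H9 replicate 2, and was listed at 0 in the other 2 libraries of that group (2.98 ± 0.37, 0.000147; 3.40 without that replicate, 4.64e-05). TBX3 rose by 1.44 ± 0.32 (0.00472) and TFAP2A by 1.22 ± 0.31 (0.01). Genes this low depend on the pseudocount, and with 0.1 the differences were 5.29 for CDX2, 2.96 for TBX3, 2.83 for TFAP2A and 3.34 for SOST. The E protein genes TCF3 and TCF12, whose products ID proteins bind, fell in naive H9, TCF12 by 0.50 (SE 0.12, 0.0076) and TCF3 by 0.25 (SE 0.09, 0.0464), the TCF3 call ending in 12 of 21 alternatives, 9 of them with 1 library left out (up to 0.133, without primed H9 replicate 1).

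**Figure D5:**
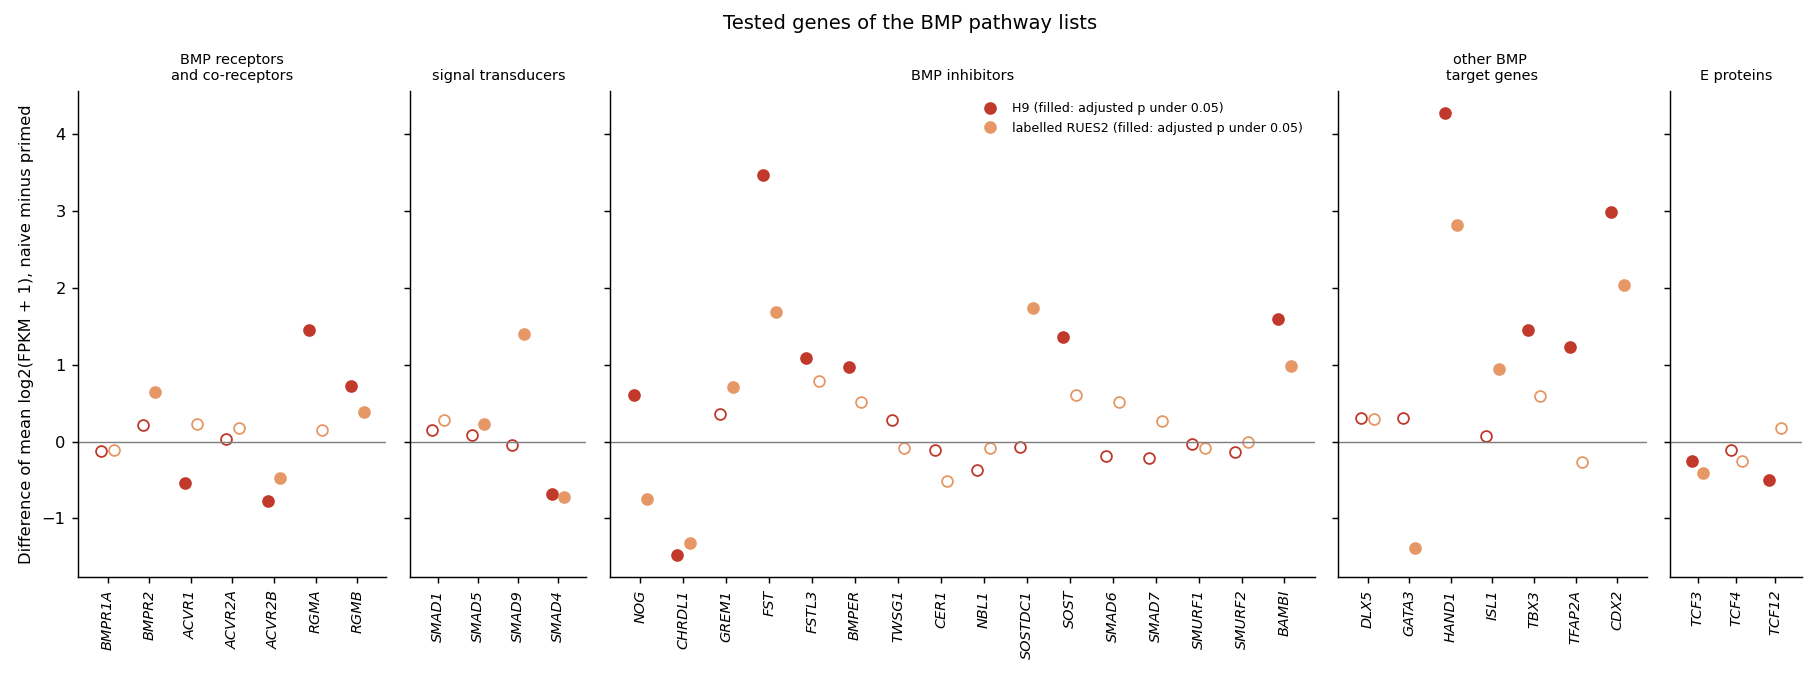
Difference of mean log2(FPKM + 1), naive minus primed, for each tested gene of the BMP receptor, transducer, inhibitor, other target and E protein lists, with H9 left of the RUES2 label at each gene; filled markers have a limma adjusted p under 0.05. HAND1, FST and CDX2 have the highest values in H9. NOG and GATA3 are among the genes that lie on opposite sides of 0 in the line labels, as do ACVR1, TFAP2A and TCF12, and of these only NOG is called in both.

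Summed markers of mesoderm, fibroblasts, neural ectoderm and primitive endoderm were higher in the naive state of both line labels. BMP4, BAMBI, MSX1 and MSX2 were called higher in naive H9, but only BAMBI and MSX1 in the RUES2 label. Beside the counts below, 20.4% of all genes tested rose and 23.9% fell in H9, and 23.1% and 23.7% in the RUES2 label. The summed level of 8 mesoderm markers (HAND1 among them) was 118 to 177 FPKM in naive H9 and 15.4 to 39.0 FPKM in primed H9, and 106 to 181 FPKM in libraries labelled naive RUES2 and 13.5 to 37.95 FPKM in primed RUES2. Of the 7 tested, 5 rose and 0 fell in H9, and 6 rose and 1 fell in the RUES2 label. The sum of 10 fibroblast markers was 429 to 615 FPKM in naive H9 and 184 to 245 FPKM in primed H9. It was 359, 259 and 1166 FPKM in replicates 1, 2 and 3 of the libraries labelled naive RUES2 and 142 to 229 FPKM in primed RUES2. Of the 9 tested, 7 rose and 1 fell (THY1) in H9, and 5 rose and 1 fell in the RUES2 label. FAP, a defining fibroblast marker, was at 0.137 to 0.206 FPKM in naive H9 and 0.194 to 1.22 FPKM in libraries labelled naive RUES2. It was under 0.1 FPKM in all primed libraries. The 6 neural ectoderm markers summed to 287 to 307 FPKM in naive H9 and 139 to 164 FPKM in primed H9. They summed to 302 to 352 FPKM in libraries labelled naive RUES2 and 98.8 to 171 FPKM in primed RUES2. Most of these sums was TUBB3 and NES. Of the 4 tested, 4 rose and 0 fell in H9, and 3 rose and 0 fell in the RUES2 label. PAX6 and SOX1 did not pass the filter, with PAX6 under 0.1 FPKM in naive H9. SOX1 overlapped between the states of H9. It was at 0.198 to 0.300 FPKM in libraries labelled naive RUES2 and 0.402 to 0.633 FPKM in primed RUES2. The 6 primitive endoderm markers summed to 17.0 to 28.9 FPKM in naive H9 and 6.44 to 12.5 FPKM in primed H9, with 3 rising and 1 falling, and to 20.3 to 42.3 FPKM in libraries labelled naive RUES2 and 14.3 to 16.3 FPKM in primed RUES2, with 4 rising and 0 falling. The 8 pluripotency markers ran the other way, with 0 rising and 6 falling in H9 and 0 rising and 8 falling in the RUES2 label. The part of other cell types in the differences of the BMP genes was not tested.

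The summed markers of amnion and trophoblast did not follow the pattern of the mesoderm markers. Those of neural crest followed it only in the RUES2 label. The 7 amnion markers summed to 7.59 to 12.1 FPKM in naive H9 and 3.78 to 9.72 FPKM in primed H9. They summed to 7.99 to 19.2 FPKM in libraries labelled naive RUES2 and 21.1 to 32.9 FPKM in primed RUES2. IGFBP3 alone was at 9.70, 27.2 and 13.4 FPKM in primed RUES2. Of the 4 tested, 1 rose (TFAP2A) and 0 fell in H9. In the RUES2 label 1 rose (ISL1) and 2 fell (GATA3 and IGFBP3). VTCN1, a defining amnion marker, was under 0.1 FPKM in all naive H9 libraries. The 6 trophoblast markers in the tables summed to 0.732 to 1.55 FPKM in naive H9 and 4.00 to 4.36 FPKM in primed H9, and to 0.426 to 1.78 FPKM in libraries labelled naive RUES2 and 7.17 to 10.2 FPKM in primed RUES2. Most of the primed sums was KRT7, a simple epithelial keratin and the 1 gene of the list that was tested, at 3.46 to 4.10 FPKM in primed H9 and 5.87 to 8.91 FPKM in primed RUES2. GCM1 and ELF5, defining trophoblast markers, were under 0.1 FPKM in all 12 libraries. The 7 neural crest markers, a lineage in which MSX genes are expressed, summed to 18.8 to 40.6 FPKM in naive H9 and 19.3 to 28.6 FPKM in primed H9, ranges that overlapped, with 4 rising and 2 falling. The sum was 41.9 to 47.8 FPKM in libraries labelled naive RUES2 and 12.1 to 21.6 FPKM in primed RUES2, again with 4 rising and 2 falling. In both line labels NR2F1, PAX3, SNAI2 and TWIST1 rose, and FOXD3 and SOX10 fell. TWIST1 alone was at 18.3 to 23.5 FPKM in libraries labelled naive RUES2. FOXD3 was at 0.187 to 0.277 FPKM there and 3.00 to 6.05 FPKM in primed RUES2.

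Within the naive groups, BMP4, BAMBI, ID1, ID2, ID3, MSX1 and MSX2 (7 of the 10 genes) had the same order of libraries in both line labels, replicate 3 over replicate 1 over replicate 2. Over all genes tested 8.22% had it in both, HAND1, CDX2 and the collagen gene COL3A1 among them. Only this order was counted, with the values of these genes known, so the 7 of 10 is a description and not a test. Relative depth had that order in naive H9 (1.53, 1.01 and 0.863 for replicates 3, 1 and 2) but not in libraries labelled naive RUES2 (0.975, 1.11 and 0.918). The part of depth in this order was not tested.

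As a description over the 12 libraries, which fall into 4 groups, the genes whose log2 values were most like those of each gene were listed among 10217 tested genes that averaged 5 FPKM or more in some group. For BAMBI they were NRP1, a co-receptor of semaphorins and VEGF (Pearson r = 0.984), EMILIN2 (0.971) and COL4A1, a basement membrane collagen (0.968). For BMP4 they were CSRNP1 (0.965), TMEM185A (0.964) and ARSI (0.959). For MSX1 they were H19, an imprinted non-coding RNA, EHD1 and LEF1, a transcription factor of the WNT pathway (0.976 to 0.977). LEF1 averaged 12.5 FPKM in naive H9 and 0.784 FPKM in primed H9, and 7.54 FPKM in libraries labelled naive RUES2 and 0.937 FPKM in primed RUES2.

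For the other genes the likeness was led by MYL4, a myosin light chain gene (0.948, beside MSX2), BRPF1 (0.975, beside ID2), FAM20A (0.941, beside BMP7), PRSS1 (0.952, beside ID1), ZNF181 (0.945, beside ID4), ZNF880 (0.930, beside BMP2) and WDR6 (0.900, beside ID3). TFAP2C, a factor of naive cells and trophoblast, came second beside BMP7 (0.891). A pattern shared by groups of 3 libraries gives high values by itself, so these correlations carry no p.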

How the data were processed

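In all, 12 poly(A) RNA-seq libraries were used, 3 in each of 4 groups taken from the labels. The submitters' processing notes list bcl2fastq (2.17.1.14), TopHat2 (2.1.1) and hg19; neither the expression program, its annotation nor the strandedness is given in the sources used here. The deposited tables give FPKM for every gene with confidence bounds, per the file headers, although the design text speaks of RPKM. They hold no counts: 29.3% to 32.9% of values under 60 implied fragments lay within 0.05 of a whole number, so no count test was run and depth is known only relatively. No entry overlapped the 10 genes. Where a symbol had several loci (310 symbols), the highest on average was used.

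The 14429 genes that reached 1 FPKM in 3 or more libraries were fitted with limma (3.58.1, R 4.3.3) on log2(FPKM + 1), with a mean per group over all 12 libraries, an empirical Bayes variance trend and two-sided tests. Benjamini-Hochberg adjustment ran over all of them, with calls at an adjusted p under 0.05. Such differences understate changes of low genes. The script was tested on simulated data. The p-values reflect variation among libraries, which may be technical. Python 3.11.15 (numpy 2.4.6, pandas 2.3.3, matplotlib 3.10.9) was used for summaries and drawing.

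Alternatives were a pseudocount of 0.1, no filter, a filter of 5 FPKM, median-ratio and quantile scaling, a replicate block, fits of the compared groups alone, no variance trend, summed loci, and each library left out. All 10 genes were named; from each pathway list, up to 4 called genes with the largest change in H9; and, by likeness, the 3 genes with the highest Pearson correlation. The genes and lists were chosen with earlier results of these data known. An inhibitor gene of the lists is not reported here. Gene positions are 1-based on hg19 as deposited.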

Additional observations from a re-analysis of the deposited data

Results flagged for a closer look

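In all, 7 genes of the pathway lists had a change from primed to naive that differed between the line labels, by a limma test of the difference itself (change in RUES2 minus change in H9). They are named because they were called, and 5.7% of all genes tested were called. They were 1 of 7 tested receptor genes, 1 of 4 transducers, 1 of 7 other targets and 1 of 3 E protein genes. Of 16 tested inhibitors, 1 was higher and 2 were lower. None was among the 10 genes. SOSTDC1, a secreted antagonist of BMP and WNT, was at 3.26, 4.40 and 2.82 FPKM in libraries labelled naive RUES2, against 0.291, 0.429 and 0.302 FPKM in primed RUES2. It was at 0.135, 0.160 and 0.106 FPKM in naive H9, against 0.127, 0.236 and 0.200 FPKM in primed H9, so the expressing libraries were those labelled naive RUES2 (difference 1.80, adjusted p = 0.0008). NOG, which encodes the BMP-binding protein noggin, rose by 0.61 in H9 and fell by 0.75 in the RUES2 label (difference -1.35, adjusted p = 0.00582). RGMA rose in H9 and was at 17.4 to 22.5 FPKM in libraries labelled naive RUES2 and 14.01 to 20.3 FPKM in primed RUES2 (difference -1.30, adjusted p = 0.00461). These 3 calls held in every alternative run.

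SMAD9 was at 3.07, 4.80 and 2.30 FPKM in libraries labelled naive RUES2 and at 0.245 to 1.11 FPKM in the other 9 libraries (difference 1.44, adjusted p = 0.0243), a call that ended without naive H9 replicate 1 or 2, primed RUES2 replicate 1 or replicate 1 of the libraries labelled naive RUES2 (up to 0.0696). GATA3, a factor of trophoblast and amnion, was at 0.244 to 0.374 FPKM in libraries labelled naive RUES2 and 1.52 to 4.37 FPKM in primed RUES2 (difference -1.68, adjusted p = 0.0326, ended in 9 alternatives, 8 of them with 1 library left out, up to 0.0863). FST rose in both labels, more in H9 (difference -1.78, adjusted p = 0.0345, ended in 10, 9 of them with 1 library left out, up to 0.0948). TCF12 fell in H9 and did not pass in the RUES2 label (difference 0.68, adjusted p = 0.047, ended in 12, 9 of them with 1 library left out, up to 0.113). The libraries labelled naive RUES2 enter all 7 differences as labelled, and the part of line identity was not tested.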

How the results depend on the processing

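The number of the 10 genes called stayed between 5 and 7 in H9 (6 in the analysis reported) and between 3 and 5 in the RUES2 label (4) over all alternatives. For the difference between the labels it was 0, and 1 with a pseudocount of 0.1, median-ratio scaling, quantile normalization or the replicate block, and 0 to 2 with 1 library left out, 2 without primed H9 replicate 2. For RUES2 against H9 in the primed state it was 2, 1 with a pseudocount of 0.1, no filter, a filter of 5 FPKM (which left 9 of the 10 genes) or median-ratio scaling, 0 with the replicate block or the primed groups alone, and 0 to 2 with 1 library left out. In the naive state it was 1, 2 with the naive groups alone, and 0 to 1 with 1 library left out. The causes of these moves were not tested. The fit of the compared groups alone could not be made for the difference between the labels, which needs all 4.

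Same-numbered replicates deviated together with correlations of -0.05 to 0.14, so the shared numbers were not taken as pairs. With the replicate block 6, 4, 1, 0 and 1 genes were called in H9, RUES2, their difference, the primed state and the naive state.

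Signs turned only in comparisons that were not called. MSX1 in the primed state was 0.65 with a pseudocount of 0.1. With 1 library left out, ID3 in H9 ran from -0.13 to 1.29. In the RUES2 label BMP2 ran from -0.043 to 0.30, BMP7 from -0.18 to 0.26 and MSX2 from -0.36 to 0.25. The MSX1 difference between the labels ran from -1.01 to 0.097. In the primed state ID3 ran from -0.0047 to 1.41 and MSX1 from -0.47 to 0.57, and in the naive state BAMBI ran from -0.65 to 0.047 and ID4 from -0.27 to 0.13. The depth in reads is unknown.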
